A study of Mus musculus with 8 samples.

Results

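The 9 genes described here encode effectors, receptors and transcription factors of type 2 and type 17 lymphocytes. They were fixed by name (Il17a, Il5, Il13, Areg, Calca, Il1rl1, Gata3, Rora and Il23r) out of 30406 genes that all libraries list, and were followed across 4 of 21 annotated clusters of leukocytes. These clusters were ILC2 (innate lymphoid cells type 2), gdTc (T cells with a γδ receptor), Tc (other T cells) and NK (natural killer cells), and they held 4523 of 32457 annotated cells. The cells came from brain parenchyma, pia mater and dura mater of adult male C57BL/6 mice (C57BL/J in the titles), either control mice or mice after transient middle cerebral artery occlusion (MCAO), a model of ischemic stroke. Mice after MCAO were examined at 24 h in all tissues and at 72 h in the brain alone. All cells were sorted as CD45+ and unstained by a CD45 antibody injected into the blood, a gate meant to leave out circulating leukocytes. There were 2 libraries of brain at 24 h and 1 library of every other group, 8 in all, from droplet-based sequencing that counts each captured transcript by a unique molecular identifier (UMI). The study's methods call the control mice naive and a legend calls them sham-operated, so they are called control. The study states that its single-cell experiments were repeated and pooled within each compartment, and how many mice went into each library, and whether the artery was closed for the shorter or the longer of the study's times, was not found.

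Type 2 lymphocytes, of which ILC2 are the tissue-resident innate form, guard barrier surfaces such as the meninges. They depend on the transcription factors GATA3 and RORα, respond to interleukin (IL)-33 released by damaged cells through its receptor ST2 (Il1rl1), and secrete IL-5, which sustains eosinophils, IL-13, which acts on epithelium and macrophages, and amphiregulin (Areg), a growth factor of tissue repair. ILC2 can also make calcitonin gene-related peptide (CGRP), a neuropeptide encoded by Calca. Type 17 lymphocytes, which include many meningeal γδ T cells, carry the IL-23 receptor (Il23r) and secrete IL-17A, a cytokine that draws neutrophils. The counts of Calca do not separate the transcripts of calcitonin and CGRP, and those of Il1rl1 do not separate membrane-bound from soluble ST2.

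The libraries held 6591898 to 20754181 UMIs and a median of 1083 to 2505 UMIs per annotated cell. The supplement names kit version 3 for brain at 72 h and dura at 24 h and version 2 for the rest. The files group the libraries otherwise, since replicate 2 of brain at 24 h and the 72 h library carried a shorter gene list than the others, dura at 24 h included. Of the 292 cell barcodes found in more than 1 library, 5 were lymphoid. Pairs among the 6 libraries of the longer list shared 10 to 32 barcodes (dura at 24 h 12 to 27 with each of the others), the 2 of the shorter list shared 8, and pairs across the lists 0 to 2. Which kit each library came from was thus not settled. If the supplement is right, kit version and MCAO cannot be told apart in the dura, though both pia libraries were of version 2. Results with kit version 2 alone follow the supplement. They leave out dura at 24 h and keep replicate 2 of brain at 24 h, which the files group with brain at 72 h. The control pia library is named brain in its title and pia in its other labels, and was used as pia. Brain cells alone passed a density gradient, so tissue and isolation cannot be told apart.

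Cells of the 4 clusters were unevenly spread. In the brain, ILC2 numbered 8 in control, 12 and 29 at 24 h and 69 at 72 h. The pia gave 33 ILC2 in control and 85 at 24 h, and the dura 286 and 673. There were 668 gdTc, 1830 Tc and 830 NK, and the fewest gdTc in a library were 4, in brain at 24 h replicate 1. A level is given as CPM, the UMIs of a gene per 1000000 UMIs counted over all cells of a cluster in a library, with an exact Poisson 95% interval where groups are compared, and shares of cells have exact Clopper-Pearson 95% intervals. These intervals cover counting error only. Where fewer transcripts per cell and fewer expressing cells give the same CPM, the share of cells is given beside it.

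Markers of the named cell type were found in each cluster, with limits in ILC2 and NK. Gata3 was detected in 50.9% and Rora in 54.1% of ILC2, and both were among the genes by which the study named this cluster. In gdTc they were detected in 8.83% and 48.4% of cells. Of the ILC2 markers outside the members, Il7r was found in 30.9% of ILC2 and 50% of gdTc. Arg1 (12.1%) and Klrg1 (8.03%) were sparse in ILC2 and rarer in gdTc (1.80% and 0.299%). Of the ILC2, 597 of 1195 also had a UMI of a T cell receptor or Cd3 gene, led by Trbc1 (28.5%) and Trbc2 (25.2%), while Cd3e reached 2.34% and Trdc 0.837%. In gdTc, Trdc was found in 78.7% of cells and Cd3g in 85.5%. Tc held Cd3g in 74.0% and Trac in 67.4% of cells, and NK held Nkg7 in 93.7% and Ncr1 in 34.1%. Nkg7 was also found in 65.5% of Tc, and Ncr1 in 0.383%. Of the NK, 601 of 830 had a UMI of a T cell receptor or Cd3 gene, led by Trbc1 (46.9%) and Trbc2 (32.8%). Cd3g reached 19.5% and Trdc 12.5% of NK.

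Across all 21 clusters, the type 2 effectors lay mostly in ILC2 and the type 17 genes in gdTc. The authors built the clusters from the same counts, so the differences between clusters are a description and were not tested. Of 861 Il5 UMIs, 827 (96.1%) were in ILC2, and so were 5577 of 5911 Calca UMIs (94.3%). Of 43 Il17a UMIs, 38 (88.4%) were in gdTc, and so were 89 of 94 Il23r UMIs (94.7%). Il13 was divided between ILC2 (59.0%) and mast cells (30.6%), and Il1rl1 between ILC2 (57.2%), mast cells (14.8%) and type 2 myeloid dendritic cells (10.5%). ILC2 held 74.1% of Gata3 UMIs and 66.1% of Areg UMIs, with 11.5% of Areg in the macrophage cluster Macro_2. Rora was the most widely shared of the 9 genes, with 45.9% of its UMIs in ILC2, 16.7% in gdTc and 14.6% in Tc.

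**Figure D1:**
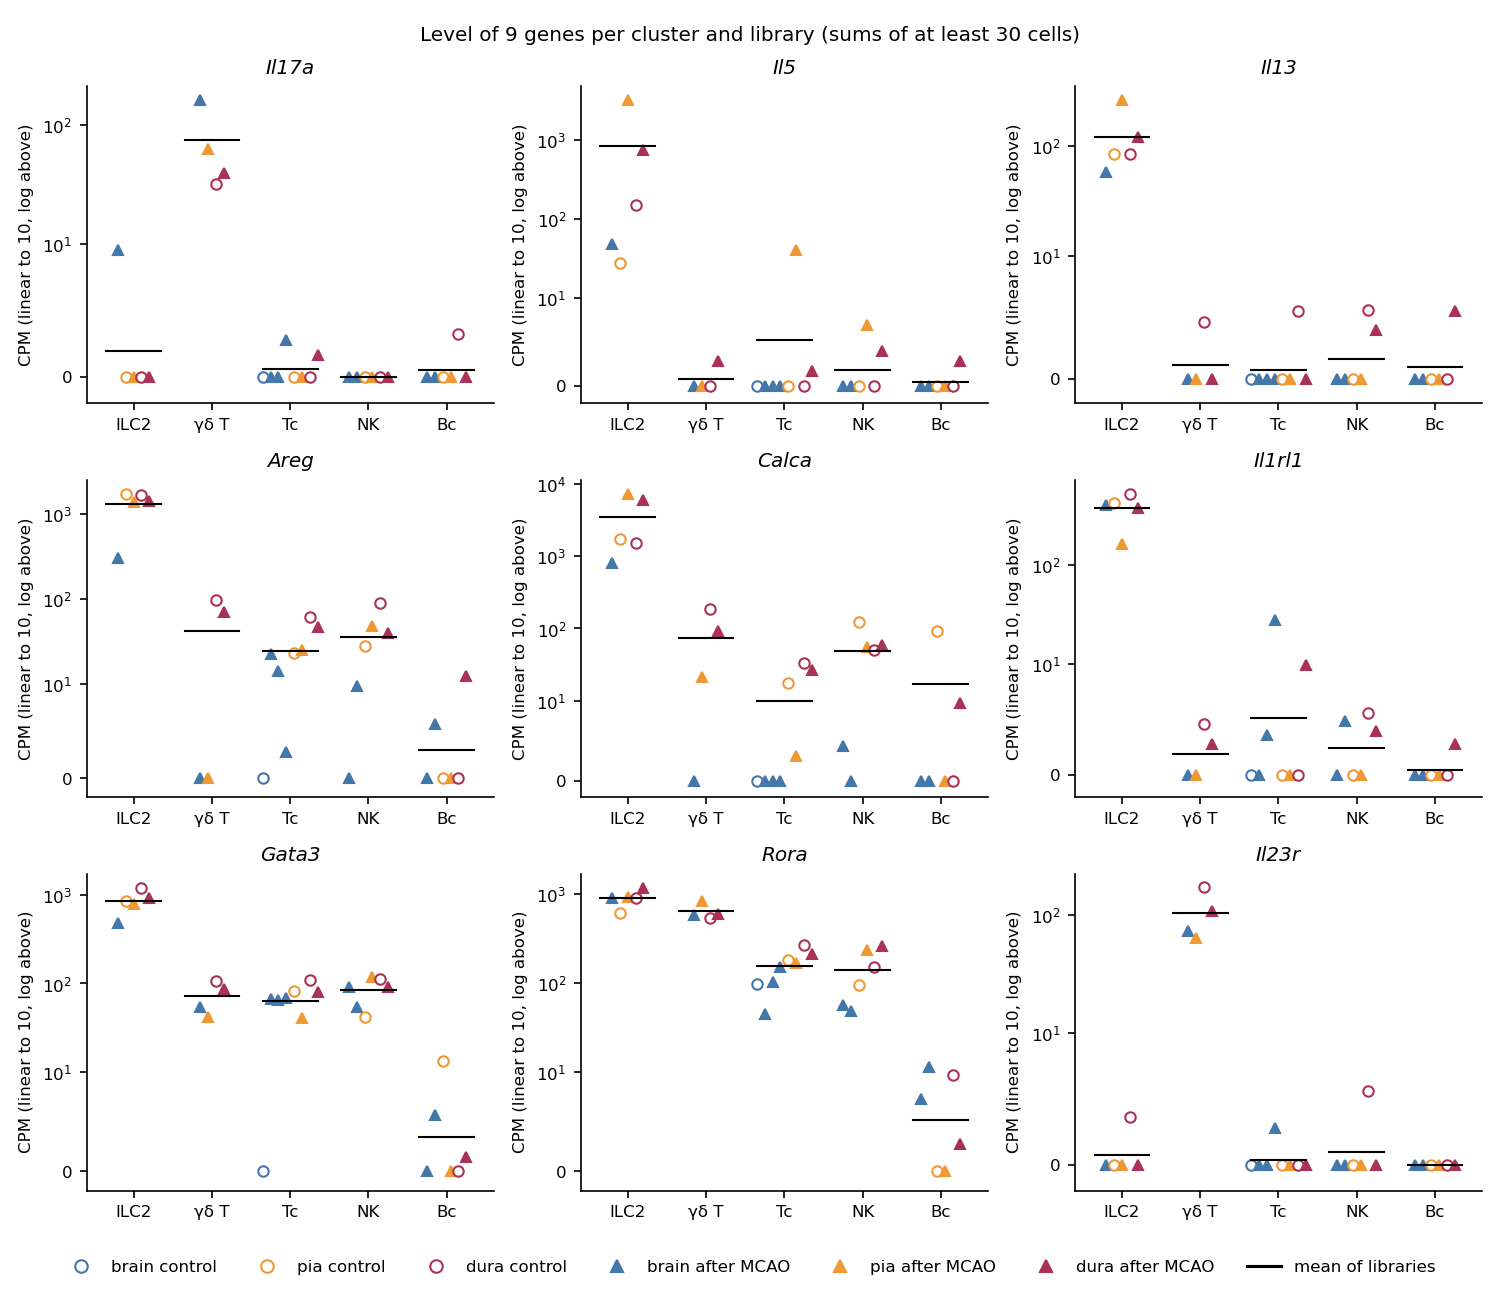
Level of each of the 9 genes (CPM of the summed cells, axis linear to 10 and log above) in ILC2, gdTc, Tc, NK and B cells (Bc), 1 point per library with at least 30 cells of the cluster, open circles for control and filled triangles for libraries after MCAO, and lines for the mean of the libraries. Of these clusters, Il5, Il13, Areg, Calca, Il1rl1 and Gata3 stood highest in ILC2, Il17a and Il23r in gdTc, and Rora in both.

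Means over libraries with at least 30 cells mix tissues and times, and they give the order of the clusters for each gene. Rora averaged 913 ± 203 CPM in ILC2 (SD, n = 5 libraries) and 642 ± 139 in gdTc (n = 4), above Tc (155 ± 71.2, n = 8), NK (142 ± 90.4, n = 6) and Bc (5.20 ± 4.97, n = 6). Tc and NK did not differ beyond their spread. Gata3 averaged 840 ± 257 CPM in ILC2, and its levels in NK (84.6 ± 30.7), gdTc (72.7 ± 29.4) and Tc (64.3 ± 32.6) lay within one another's spread. Areg averaged 1310 ± 580 CPM in ILC2, while gdTc (41.9 ± 49.6), NK (35.8 ± 31.9) and Tc (24.3 ± 20.6) overlapped. Calca averaged 3463 ± 2949 CPM in ILC2, and its levels of 74.8 ± 83.4 in gdTc, 48.9 ± 45.2 in NK, 10.0 ± 13.7 in Tc and 17.2 ± 37.6 in Bc overlapped. Il5 reached 832 ± 1351 CPM and Il13 121 ± 80.2 CPM in ILC2, the former with an SD above its mean. Il1rl1 averaged 370 ± 130 CPM in ILC2. For Il17a and Il23r, the means in gdTc were 74.8 ± 60.8 and 104 ± 48.6 CPM.

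The promoters of the 4 type 2 effectors are shown because the levels of these secreted products are compared between libraries next. Each line gives the 250 bases before the gene's start in RefSeq (GRCm38.p6), 5′ to 3′ along the strand of the gene. Capitals mark GATA motifs (AGATAA and its forms that begin with T, end with G, or both), the half-site of ROR factors (AGGTCA) and the half-site of cAMP-responsive factors (TGACG, which the full element TGACGTCA contains), on either strand.
Il5, chr11:53720544-53720793, plus strand: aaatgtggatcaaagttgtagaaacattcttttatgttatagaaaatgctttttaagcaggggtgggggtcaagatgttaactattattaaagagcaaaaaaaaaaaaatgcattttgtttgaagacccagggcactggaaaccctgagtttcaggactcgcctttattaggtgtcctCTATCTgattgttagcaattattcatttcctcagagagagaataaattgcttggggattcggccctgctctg
Il13, chr11:53634703-53634952, minus strand: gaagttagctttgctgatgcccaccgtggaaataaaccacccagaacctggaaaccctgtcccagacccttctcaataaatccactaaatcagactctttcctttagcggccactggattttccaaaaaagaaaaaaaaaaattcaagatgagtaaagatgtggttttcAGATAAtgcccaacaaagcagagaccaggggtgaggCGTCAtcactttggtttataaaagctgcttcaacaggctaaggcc
Calca, chr7:114636358-114636607, minus strand: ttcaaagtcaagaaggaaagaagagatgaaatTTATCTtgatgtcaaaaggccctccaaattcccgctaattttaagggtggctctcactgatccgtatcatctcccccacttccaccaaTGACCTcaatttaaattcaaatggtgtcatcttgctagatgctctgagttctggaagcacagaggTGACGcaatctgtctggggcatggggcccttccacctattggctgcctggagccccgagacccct
Areg, chr5:91139349-91139598, plus strand: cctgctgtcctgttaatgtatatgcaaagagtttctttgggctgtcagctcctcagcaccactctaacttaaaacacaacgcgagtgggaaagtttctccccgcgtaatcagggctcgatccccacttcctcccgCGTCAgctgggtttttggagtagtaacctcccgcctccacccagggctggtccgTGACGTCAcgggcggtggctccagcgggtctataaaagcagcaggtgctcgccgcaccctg

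Il5 held 1 GATA motif at -72 (first base, counted from the start) and no other motif searched. The Il13 window held a GATA motif at -81 and a TGACG at -45. In Calca, all 3 kinds were found, a GATA motif at -218, an AGGTCA at -130 and a TGACG at -65. Areg had no GATA motif, but TGACG at -115, -61 and -58, the last 2 within the full element TGACGTCA at -61. Of all 32851 promoter windows of this length, 26.5% held a GATA motif, 14% an AGGTCA, 17.8% a TGACG and 1.55% the full element, so that the first 3 kinds are common. The other windows are of Il1rl1, Rora and Gata3. Il1rl1 held 5 GATA motifs before its first start. Before its second start it held 1 GATA motif, an AGGTCA at -185 and a TGACG at -34. Rora held 1 GATA motif, and Gata3 none. All 9 genes were matched by symbol. Such matches describe letters in the window and no binding was measured.

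**Figure D2:**
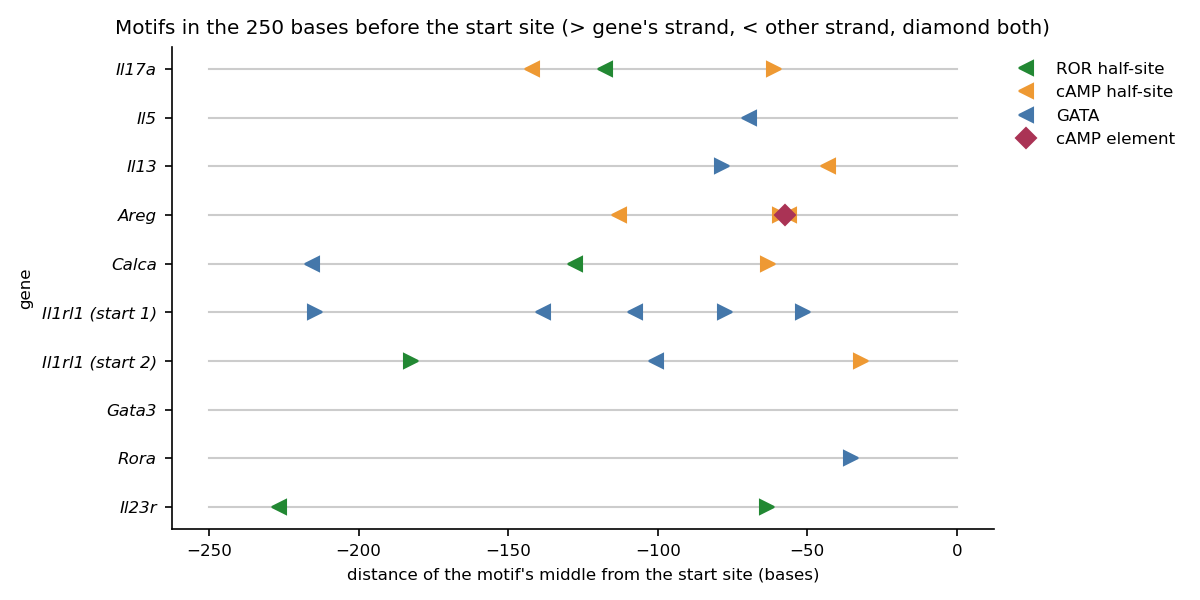
Positions of the motifs in the 250 bases before the start of each gene (x axis, bases from the start), with > for the strand of the gene, < for the other strand and a diamond for both. The full cAMP element is in Areg alone, and Il23r holds 2 AGGTCA.

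Il5 and Calca were the members that rose in ILC2 after MCAO. Il5 stood at 0 CPM in control brain (8 cells, where 3 counts would be 336 CPM), 113 and 42.5 CPM in brain at 24 h and 47.9 CPM in brain at 72 h, from 0 to 5 UMIs each. In the pia, Il5 was 27.9 CPM (0.707 to 156) in control and 3192 CPM (2853 to 3561) at 24 h, from 1 and 321 UMIs. In the dura, Il5 was 152 CPM (110 to 206) in control and 742 CPM (675 to 813) at 24 h. Both meningeal libraries at 24 h thus stood above both control libraries, pia highest, while the brain libraries stayed low. The ratio of 24 h to control was 114 in pia (95% counting interval 20.4 to 4528) and 4.86 in dura (3.54 to 6.84). In the pia, the share of ILC2 with an Il5 UMI went from 3.03% (0.0767 to 15.8) to 29.4% (20.0 to 40.3), and in the dura from 5.59% (3.23 to 8.93) to 13.7% (11.2 to 16.5). After thinning every cell to 500 UMIs, these shares were 0%, 24.7%, 3.85% and 10.1%. Among B cells (Bc), which should lack the gene, it was 0.457% in dura at 24 h and 0% in the other 3 meningeal libraries. The median B cell of dura at 24 h held 805 UMIs, against 885 per ILC2.

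Among the meningeal libraries, Calca, too, was highest at 24 h. It stood at 1732 CPM (1328 to 2220) in control pia, 7250 CPM (6733 to 7796) in pia at 24 h, 1517 CPM (1375 to 1670) in control dura and 6021 CPM (5828 to 6219) in dura at 24 h. The 2 controls were close to each other, as were the 2 libraries at 24 h, and the groups did not overlap. The ratios of 24 h to control were 4.19 (3.23 to 5.52) in pia and 3.97 (3.59 to 4.40) in dura. The share of ILC2 with a Calca UMI went from 51.5% to 69.4% in pia and from 43.4% to 75.0% in dura, and after thinning from 42.4% to 61.2% and from 34.3% to 66.4%. Of B cells, 3.33% had a Calca UMI in control pia and 1.6% in dura at 24 h, and 0% in the other 2 meningeal libraries. Defining markers of neurons, the other well-known source of CGRP, were at 0 in ILC2 of every library (Snap25, Rbfox3 and Tubb3). All cells were sorted as CD45+, and B cells held 0, 6 and 3 UMIs of these genes. The values thus cannot tell where Calca came from, which was not tested.

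Brain levels of Calca turned on single cells. They were 672 CPM in control brain, 17802 and 4080 CPM at 24 h, and 795 CPM at 72 h. Of 314 Calca UMIs in brain at 24 h replicate 1, 311 lay in 1 cell, and without it the library stood at 260 CPM. Replicate 1 was thus the higher of the 2 libraries with that cell and the lower without it.

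**Figure D3:**
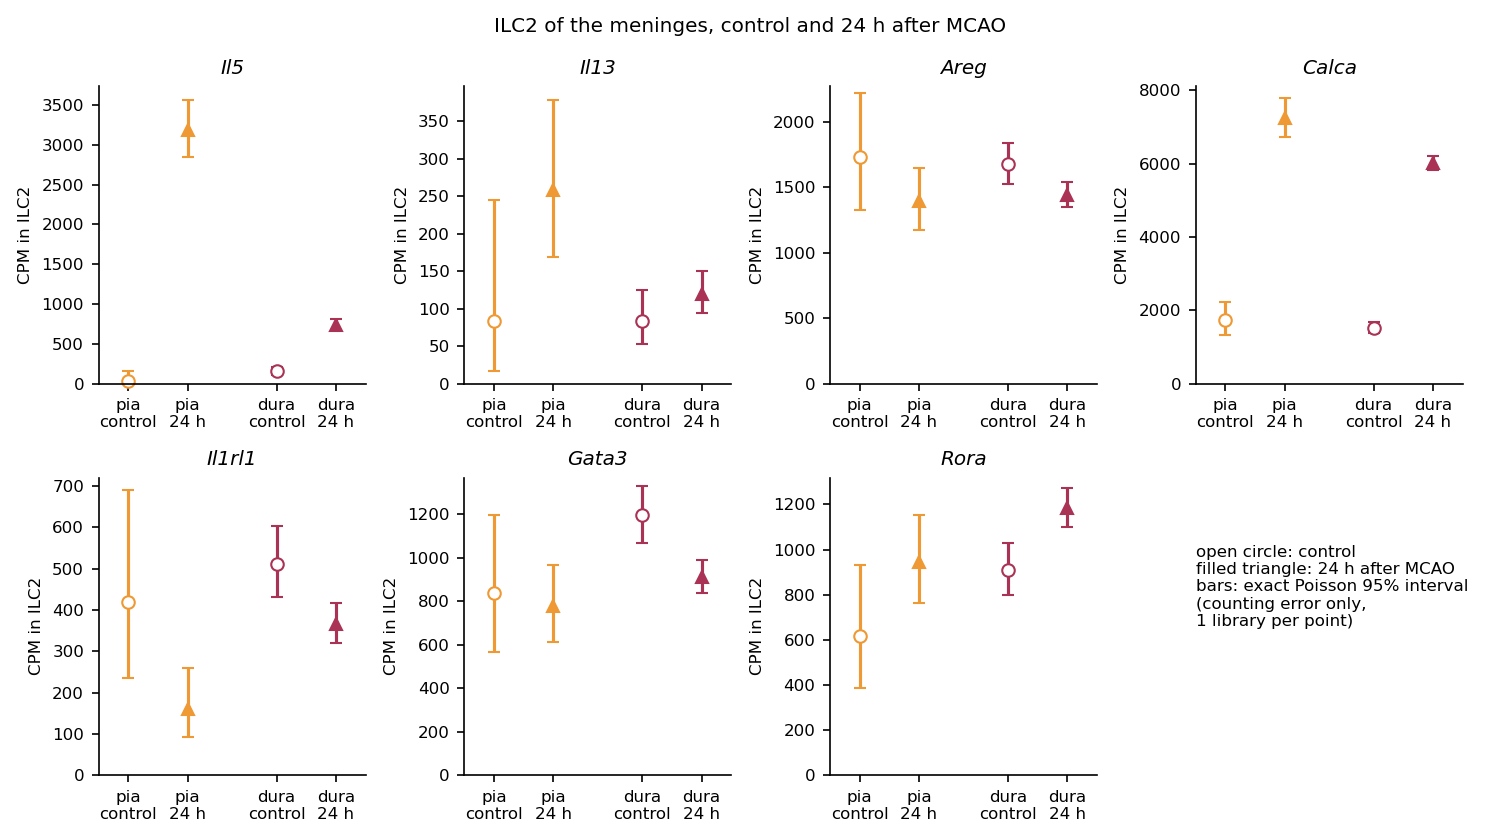
Levels of Il5, Il13, Areg, Calca, Il1rl1, Gata3 and Rora in ILC2 of pia and dura (CPM, linear axes from 0), 1 point per library with its exact Poisson 95% interval, open circles for control and filled triangles for 24 h. Il5 and Calca are higher at 24 h in both tissues, Il13 intervals overlap within each tissue, and Areg is not higher at 24 h in either tissue.

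A fit over the libraries with at least 30 ILC2 tested these changes, with tissue as a block and the library as the replicate. Calca rose by 2.09 on the log2 scale at 24 h (SE 0.19, adjusted p = 4.5e-25) and Il5 by 3.18 (SE 0.35, adjusted p = 6.3e-11, edgeR's quasi-likelihood test with Benjamini-Hochberg adjustment). These were 2 of the 7 members tested, beside 53 of all 2532 genes called (2.09%). The library of brain at 72 h is a level of its own, so the contrast rests on the 4 meningeal libraries with 1 residual degree of freedom. No meningeal library can be left out of it. The residual is the difference of the change between pia and dura, so these p-values do not measure a spread between replicate libraries. Il5 rose far more in pia than in dura, as given above. Its fitted 3.18 thus describes neither tissue alone, and its SE does not measure the gap between them. With DESeq2, which called 5 genes (0.197%), Calca kept its call (2.10, adjusted p = 2.4e-12) and Il5 did not (4.36, adjusted p = 0.855). With libraries of at least 10 ILC2, which adds those of brain at 24 h, Il5 was called (3.73, SE 0.74, adjusted p = 0.00076) and Calca was not (2.10, SE 0.74, adjusted p = 1.0). In that larger fit Il5 lost its call, and Calca stayed without one, when brain at 72 h or any 1 of the 4 meningeal libraries was left out. Calca then spanned 2.00 to 2.18 and Il5 2.29 to 6.90, the latter lowest without control pia and highest without control dura. Both were called when either 1 of the brain libraries at 24 h was left out (Calca 2.11 and 2.09, Il5 3.20 and 3.18).

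Il13 and Areg did not pass the test. Il13 stood at 83.8 CPM (17.3 to 245) in control pia, 259 CPM (169 to 379) in pia at 24 h, 83.5 CPM (52.9 to 125) in control dura and 120 CPM (93.7 to 150) in dura at 24 h. Both values at 24 h were the higher, but the intervals overlapped in each tissue, and the ratios were 3.09 (0.946 to 15.9) and 1.43 (0.885 to 2.40). Of 26 Il13 UMIs in pia at 24 h, 14 lay in 1 cell, and the level without it was 121 CPM. The share of ILC2 with an Il13 UMI was 5.94% in both dura libraries. In the fit, Il13 differed by 0.82 (SE 0.42, adjusted p = 0.504, edgeR with Benjamini-Hochberg adjustment).

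Areg was already high in meningeal ILC2 of control mice. Its levels were 1732 CPM in control pia, 1392 CPM in pia at 24 h, 1677 CPM in control dura and 1443 CPM in dura at 24 h. Brain ILC2 held much less, with 0 CPM in control, 113 and 99.2 CPM at 24 h and 307 CPM at 72 h, so the tissues did not overlap. The ratios of 24 h to control were 0.804 (0.592 to 1.10) in pia and 0.860 (0.768 to 0.965) in dura, and the fit gave -0.19 (SE 0.23, adjusted p = 0.917, edgeR with Benjamini-Hochberg adjustment). The share of ILC2 with an Areg UMI was 43.8% to 54.5% in the meninges and 0% to 18.8% in the brain.

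No receptor or transcription factor among the members passed the test in ILC2 at 24 h. Il1rl1, the IL-33 receptor, stood at 224 CPM in control brain, 56.7 and 468 CPM in brain at 24 h, 393 CPM at 72 h, 419 CPM in control pia, 159 CPM in pia at 24 h, 512 CPM in control dura and 365 CPM in dura at 24 h. In each meningeal tissue the library at 24 h was the lower, with ratios of 0.380 (0.176 to 0.825) in pia and 0.713 (0.575 to 0.887) in dura. The fit gave -0.66 (SE 0.29), which did not pass (adjusted p = 0.345, edgeR with Benjamini-Hochberg adjustment).

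Gata3 ranged from 479 CPM (brain at 72 h) to 1194 CPM (control dura) over the 8 ILC2 sums, with ratios of 0.926 (0.600 to 1.46) in pia and 0.762 (0.664 to 0.876) in dura. Rora ranged from 224 CPM (control brain) to 1185 CPM (dura at 24 h), with ratios of 1.54 (0.959 to 2.57) and 1.31 (1.13 to 1.51). Neither passed the test of 24 h against control (Gata3 -0.23, SE 0.26, adjusted p = 0.917, and Rora 0.52, SE 0.26, adjusted p = 0.471, edgeR with Benjamini-Hochberg adjustment). The counts of Gata3 may hold reads of 9230102O04Rik, which overlaps it on the same strand, and those of Il5 and Rora overlap antisense genes. The type 17 genes were all but absent from ILC2, with 1 Il17a UMI in brain at 72 h and 1 Il23r UMI in control dura.

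Markers of other lineages moved as follows in the ILC2 sums. The summed level of the macrophage and microglia markers (7 of 7 detected in each meningeal library) was 7738 CPM in control pia against 2685 CPM in pia at 24 h, and 2665 CPM against 2689 CPM in dura. For the T cell markers it was 1620 CPM against 1104 CPM in pia and 1202 CPM against 863 CPM in dura. Over all ILC2, most UMIs of the T cell markers were of Trbc1 (519) and Trbc2 (412), beside 120 of Cd3g and 33 of Cd3e. Neutrophil markers went from 0 to 49.7 CPM in pia and from 171 to 401 CPM in dura. Mast cell markers, of a cell type that also carries Il13 and Il1rl1, stood at 229 CPM and 219 CPM in dura (7 of 7 detected) and at 55.9 CPM and 9.95 CPM in pia, where Kit alone was found. The part of these in the results was not tested. Without cells that had a UMI of a T cell receptor or Cd3 gene, Il5 was 0 CPM and 3285 CPM in pia and 225 CPM and 871 CPM in dura. Calca was then 1108 CPM and 6903 CPM in pia and 1937 CPM and 6176 CPM in dura. This left out 22 of 33 ILC2 in control pia and 46 of 85 in pia at 24 h. The cells left in control pia were below the minimum for a fit, so its 0 CPM and 1108 CPM rest on few cells. All ILC2 of control pia held 1 Il5 UMI, in a cell left out here, so the 0 CPM does not show absence. These changes were not tested.

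Il5 came from a small part of the ILC2. In pia at 24 h, 5 of 85 cells held 50% of its UMIs, and the highest cell held 50 of 321 (15.6%). In dura at 24 h, 14 of 673 cells held 50%, and in control dura 3 of 286. Cells with any Il5 UMI had a mean of 12.8 UMIs in pia at 24 h, 4.92 in dura at 24 h and 2.62 in control dura. Calca was spread more widely, with 50% of its UMIs in 8 of 85 cells of pia at 24 h, 77 of 673 of dura at 24 h and 24 of 286 of control dura.

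**Figure D4:**
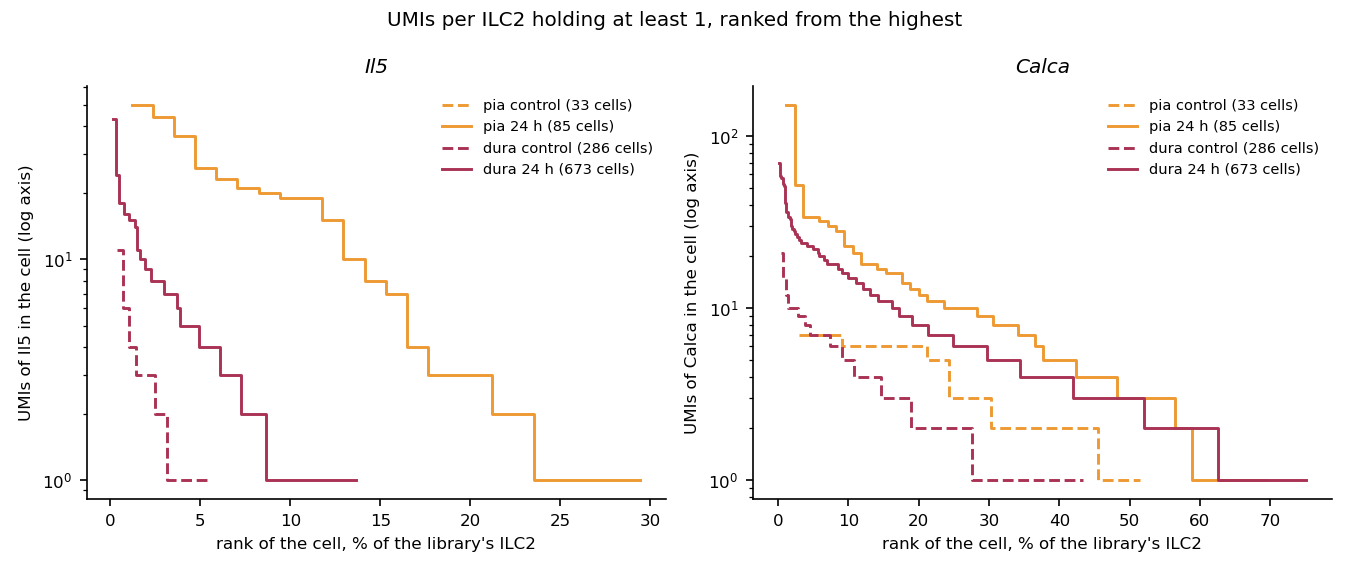
UMIs of Il5 and Calca in each ILC2 that held at least 1 (y axis, log), ranked from the highest and placed by rank as a percent of the ILC2 of its library (x axis), 1 line per pia or dura library. Control pia, where 1 ILC2 held Il5, has no visible Il5 line. In pia at 24 h the highest Il5 cell holds 50 UMIs and the highest Calca cell 152, and far more cells hold Calca than Il5.

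Cells with Il5 often held the other type 2 effectors. Of 141 ILC2 with an Il5 UMI, 83.0% had Calca, against 59.7% of the other ILC2, 69.5% had Areg against 39.6%, and 20.6% had Il13 against 3.7%. By library, 23 of 25 Il5 cells in pia at 24 h had Calca (92.0% against 60%), as had 78 of 92 in dura at 24 h (84.8% against 73.5%) and 9 of 16 in control dura (56.2% against 42.6%). Il13 was present in 7 of the 25 and in 20 of the 92 Il5 cells, and 7 of 8 Il13 cells in pia at 24 h also had Il5. Cells with both Il5 and Calca had a median of 1250 UMIs, against 1080 for all ILC2 in that library, so depth moves with these counts and its part was not tested.

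Among other type 2 genes, 20 of a list of 30 could be tested in ILC2 at 24 h. Of these, 3 were higher and 1 was lower, with a median of 0.10 on the log2 scale beside -0.0021 for all genes, of which 2.09% were called. Csf2, the gene of the growth factor GM-CSF, rose by 2.05 (SE 0.26, adjusted p = 1.6e-12), from 279 to 2397 CPM in pia and from 675 to 1988 CPM in dura. Ramp3, an accessory subunit of receptors for adrenomedullin and related peptides, rose by 0.97 (SE 0.25, adjusted p = 0.0069). The third, Il9, held 171 UMIs in pia at 24 h, of which 168 lay in 1 cell, and was at 0 in the other 7 libraries. Ccl1, a chemokine, fell by 2.41 (SE 0.31, adjusted p = 7.0e-12), from 391 to 119 CPM in pia and from 1833 to 292 CPM in dura. Lmo4 (-0.21) and Id2 (-0.33), transcriptional regulators with high counts, did not pass. With DESeq2, Csf2 (adjusted p = 0.00017) and Ccl1 (adjusted p = 0.0053) kept their calls and Ramp3 and Il9 lost them. With at least 10 cells, Il9 alone kept its call, and Csf2 (2.31) and Ccl1 (-2.21) lost theirs (adjusted p = 0.303 each, edgeR with Benjamini-Hochberg adjustment).

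Beside 2.09% of all genes called, 2 of 11 tested genes of a type 17 list of 25 fell in ILC2 at 24 h, with a median of -0.55. These were Ccr2, a chemokine receptor (-1.93, SE 0.30, adjusted p = 4.8e-08), and the protease inhibitor gene Serpinb1a (-2.09, SE 0.47, adjusted p = 0.00085, edgeR with Benjamini-Hochberg adjustment). Ccr2 stood at 587 CPM in control pia, 49.7 CPM in pia at 24 h, 508 CPM in control dura and 170 CPM in dura at 24 h. Both lost their calls with DESeq2 (Ccr2 adjusted p = 0.152, Serpinb1a adjusted p = 0.999) and with at least 10 cells (Ccr2 adjusted p = 0.272, Serpinb1a adjusted p = 1.0). Of 10 type 1 genes, Ccl5 alone could be tested and did not pass (-0.24).

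Between the meningeal tissues, 1 of 7 members tested in ILC2 differed, beside 41 of all 2532 genes (1.62%). Il5 was lower in dura than in pia by 1.5 on the log2 scale (-1.5, SE 0.35, adjusted p = 0.0053, edgeR with Benjamini-Hochberg adjustment). The direction held at 24 h (742 against 3192 CPM) but not in control (152 against 27.9 CPM). The call was lost without brain at 72 h (-1.56, adjusted p = 0.311) and with DESeq2 (-0.11, adjusted p = 1.0). Of the type 2 list, Icos (1.41), Lmo4 (1.07), Cxcr6 (1.02) and Ccl1 (1.87) were higher in dura and Il9 was lower, with a median of 0.49 beside -0.017 for all genes, and no type 17 gene differed. None of these 5 calls was kept with DESeq2 (adjusted p = 0.369 for Ccl1, the lowest), and with at least 10 cells that of Il9 alone was, which rests on the single cell in pia at 24 h.

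Against the brain, dural ILC2 held more Areg, Il5 and Il13, and Calca did not pass. This comparison needed libraries of at least 10 cells, of which there were 7, and called 48 of 3155 genes (1.52%). With brain at 72 h as a level of its own, the brain side rests on the 12 and 29 ILC2 of brain at 24 h. Il5 had 2 and 3 UMIs in these libraries. Areg was higher in dura by 3.89 (SE 0.85, adjusted p = 0.0017), Il5 by 4.51 (SE 0.94, adjusted p = 0.00080) and Il13 by 7.57 (SE 2.21, adjusted p = 0.044), which made 3 of 7 members (edgeR with Benjamini-Hochberg adjustment). Il13 was at 0 in both brain libraries at 24 h and at 57.5 CPM at 72 h, so its fold depends on the prior count. With DESeq2 Areg kept its call (3.69, adjusted p = 0.031), while Il5 (adjusted p = 0.066) and Il13 (adjusted p = 0.85) did not. All 3 calls were lost when brain at 72 h or any 1 of the 4 meningeal libraries was left out (Areg 3.55 to 3.93, Il5 3.6 to 8.11, Il13 7.23 to 7.75), and those of Il5 (3.61) and Il13 (7.63) also without brain at 24 h replicate 2. Calca (-0.40, SE 0.80, adjusted p = 0.933, edgeR with Benjamini-Hochberg adjustment) stood higher in both brain libraries at 24 h than in control dura and control pia, with the levels given above. In replicate 1 that rested on 1 cell with 311 of 314 Calca UMIs, and without it the library stood below both controls. In replicate 2, Calca stood below its levels in pia and dura at 24 h. It was called lower in dura without replicate 2 (-0.93, adjusted p = 0.00014) and not called without replicate 1 (0.59, adjusted p = 0.055). Of the type 2 list, Cxcr6 (3.5), Csf2 (6.91) and Ccl1 (4.80) were higher in dura. Csf2 alone kept its call with DESeq2 (adjusted p = 0.0016), after thinning and without brain at 72 h, Ccl1 also lost its call without brain at 24 h replicate 2, and none was called when any 1 of the 4 meningeal libraries was left out.

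In gdTc, the type 17 members were sparse. The promoters of Il17a and Il23r are shown because most UMIs of both genes in annotated cells lay in this cluster. Both windows hold the half-site of ROR factors (capitals as above).
Il17a, chr1:20730655-20730904, plus strand: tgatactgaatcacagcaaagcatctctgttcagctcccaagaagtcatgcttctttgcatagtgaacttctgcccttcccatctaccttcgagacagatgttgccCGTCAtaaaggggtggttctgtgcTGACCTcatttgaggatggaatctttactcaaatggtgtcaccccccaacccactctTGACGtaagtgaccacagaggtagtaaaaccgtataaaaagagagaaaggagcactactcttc
Il23r, chr6:67491856-67492105, minus strand: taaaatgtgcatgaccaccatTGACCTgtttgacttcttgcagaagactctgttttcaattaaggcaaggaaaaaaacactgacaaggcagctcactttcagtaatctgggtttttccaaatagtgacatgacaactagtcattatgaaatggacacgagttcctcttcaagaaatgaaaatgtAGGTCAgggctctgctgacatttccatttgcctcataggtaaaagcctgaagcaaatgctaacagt

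AGGTCA lay at -120 in Il17a and at -229 and -66 in Il23r. Il17a also held TGACG at -144 and -63, and neither window held a GATA motif.

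Il17a, which encodes the cytokine, stood at 0 CPM in control brain, brain at 24 h replicate 1 and control pia, 118 CPM in brain at 24 h replicate 2, 164 CPM in brain at 72 h, 63.6 CPM in pia at 24 h, 32.3 CPM in control dura and 39.6 CPM in dura at 24 h. The libraries at 0 were those with 4 to 16 gdTc, where 3 counts would be 166 to 492 CPM, so that a count of 0 allows a level up to that. Cells with an Il17a UMI numbered 3 of 18 and 5 of 41 in the 2 brain libraries, 1 of 43 in pia at 24 h, 6 of 190 in control dura and 10 of 350 in dura at 24 h. These counts of cells were not thinned to equal depth. The 2 brain libraries are those of the shorter gene list, and brain cells alone passed a density gradient. Tissue cannot be told apart from either. The exact interval of brain at 72 h (74.9 to 311 CPM) lay above those of control dura (13.0 to 66.5) and dura at 24 h (21.7 to 66.5), and that of brain at 24 h replicate 2 (38.3 to 275) overlapped both; these cover counting error only. In the dura the ratio of 24 h to control was 1.23 (0.463 to 3.59), and the intervals overlapped.

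Il23r stood at 118 CPM in brain at 24 h replicate 2, 72.8 CPM in brain at 72 h, 111 CPM in control pia, 63.6 CPM in pia at 24 h, 171 CPM in control dura and 108 CPM in dura at 24 h, and at 0 in the other 2 libraries. The share of dural gdTc with an Il23r UMI was 17.4% (12.3 to 23.5) in control and 10.0% (7.06 to 13.6) at 24 h, and after thinning 9.47% and 6.00%, with 0% of B cells. The ratio of the levels was 0.630 (0.390 to 1.02). Il17a and Il23r were found together in 1 cell, of 25 gdTc with Il17a and 78 with Il23r.

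Rora was the most abundantly counted member in gdTc, at 544 CPM in control dura and 594 CPM in dura at 24 h, 939 CPM in control pia and 848 CPM in pia at 24 h, and 944 and 582 CPM in the brain libraries with at least 10 cells. In the dura its share of cells was 45.8% and 45.4%. It was the only member that could be tested in gdTc, over 6 libraries of at least 10 cells with 1 residual degree of freedom. Rora did not pass at 24 h (0.10, SE 0.21, adjusted p = 0.956, with 17 of 1509 genes called, 1.13%) or in dura against pia (-0.56, SE 0.25, adjusted p = 0.455, with 18 called, 1.19%). It was lower in dura than in brain by 0.95 (-0.95, SE 0.31, adjusted p = 0.0095, edgeR with Benjamini-Hochberg adjustment), beside 466 of 1509 genes called (30.9%). The call was lost with DESeq2 (adjusted p = 0.497), scaling by library size (adjusted p = 0.053), thinning (adjusted p = 0.255) and no filter on low counts (adjusted p = 0.971). The brain libraries in this fit were those of the shorter gene list, so tissue and that set cannot be told apart. Brain at 72 h is a level of its own, so the brain side of the contrast rests on the 18 gdTc of brain at 24 h replicate 2.

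Type 2 effectors were low but present in dural gdTc. Calca stood at 185 CPM (132 to 251) in control dura and 93.4 CPM (64.3 to 131) in dura at 24 h, a ratio of 0.506 (0.309 to 0.823), and at 0 to 55.3 CPM elsewhere. The direction was thus opposite to that of ILC2 in the same libraries, and the difference was not tested. The share of cells with Calca was 11.6% and 7.43%, against 0% and 1.6% of B cells. Areg stood at 96.9 and 70.7 CPM in the dura libraries and 0 to 23.6 CPM elsewhere. Gata3 ranged from 0 to 262 CPM, the highest from 2 UMIs in 6 cells. Il5, Il13 and Il1rl1 had 1 or 0 UMIs in every gdTc library.

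**Figure D5:**
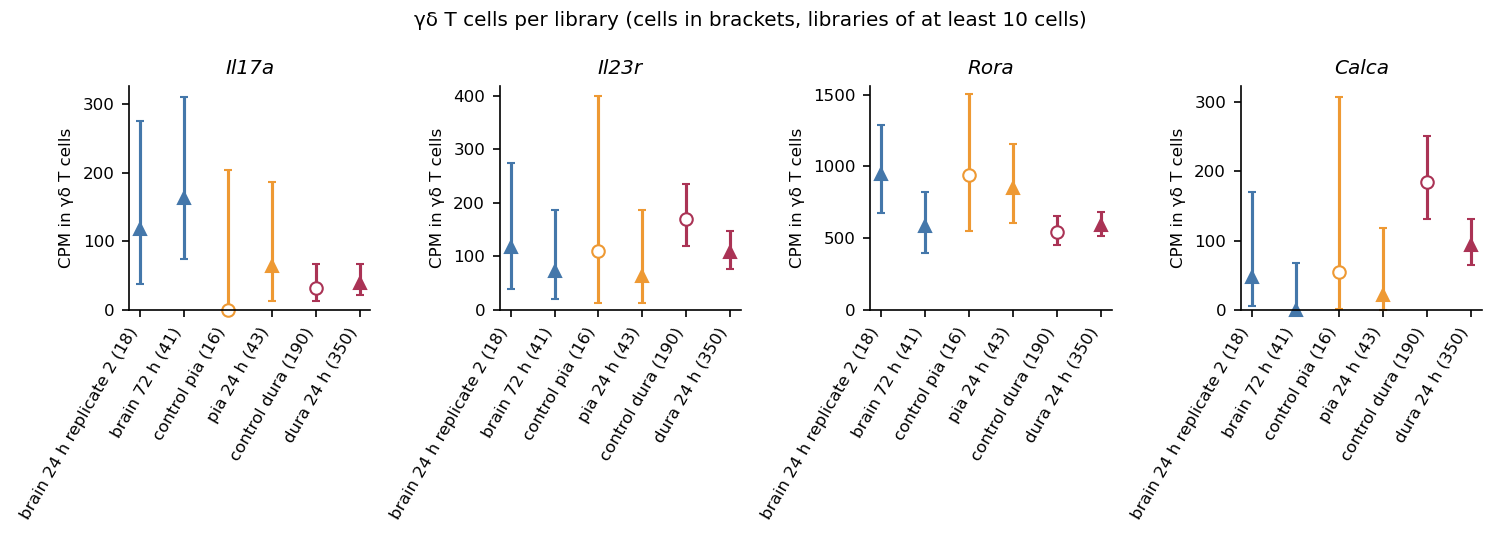
Levels of Il17a, Il23r, Rora and Calca in gdTc (CPM) in libraries with at least 10 gdTc, 1 point per library with its exact Poisson 95% interval. Il17a is highest in the 2 brain libraries, which are those of the shorter gene list, and Calca in control dura is the highest of the 6 libraries.

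Of the type 17 list, 13 genes could be tested in gdTc. At 24 h, Lgals3, encoding galectin-3, was higher (1.97, adjusted p = 0.048) and Ccr2 lower (-0.84, adjusted p = 0.0071), with a list median of 0.14 beside 0.023 for all genes. In dura against pia, Cd163l1, encoding a scavenger receptor of γδ T cells, was higher (1.01, adjusted p = 0.022), as was the kinase gene Blk (3.13, adjusted p = 6.8e-06), and Lgals3 was lower (-2.04, adjusted p = 0.018, edgeR with Benjamini-Hochberg adjustment). In dura against brain, 4 were higher and 3 lower, beside 466 of all 1509 genes called (30.9%). The shares of all genes called at 24 h and in dura against pia were 1.13% and 1.19%. Of 11 tested type 2 genes, none was called at 24 h, Lmo4 was lower in dura than in pia (-0.89), and 2 were higher and 3 lower in dura than in brain. With DESeq2, none of these calls was kept at 24 h or in dura against pia, and 1 of 12 was kept in dura against brain (Ramp3, 4.64, adjusted p = 0.0059). After thinning, too, none was kept in the first 2 comparisons and 3 of 12 in the last. Without the low-count filter, neither call at 24 h was kept, and Lgals3 also lost its call there without brain at 72 h (1.96, adjusted p = 0.067).

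Tc carried low levels of the shared members and almost none of the effectors. Rora stood at 44.7 to 270 CPM, highest in control dura (270) and dura at 24 h (213) and lowest in brain at 24 h replicate 1. Gata3 ranged from 0 to 110 CPM, Areg from 0 to 60.7 CPM and Calca from 0 to 33.1 CPM, each highest in control dura. Of dural Tc, 2.13% had a Calca UMI in control and 2.34% at 24 h, against 0% and 1.6% of B cells. Il1rl1 reached 27.8 CPM (10 UMIs) in brain at 72 h. Il17a was found in 1 Tc of brain at 72 h and 1 of dura at 24 h, and the 13 Il5 UMIs of pia at 24 h lay in 1 cell.

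Gata3, Areg and Rora could be tested in Tc, over all 8 libraries, and none of the 3 was called in any comparison. At 24 h no gene of 6361 was called (0%), with 106 at an unadjusted p under 0.05, while DESeq2 called 0 with 38. The members lay between -0.22 and -0.088 (adjusted p = 1.0 each, edgeR with Benjamini-Hochberg adjustment). In dura against pia 2 genes were called (0.0314%), and in dura against brain 38 (0.597%), where Areg (1.84, SE 0.78, adjusted p = 0.377) and Rora (1.36, SE 0.49, adjusted p = 0.293) did not pass. Of 17 type 2, 11 type 17 and 10 type 1 genes tested in Tc, none was called at 24 h or in dura against pia, and Ramp3 (3.48, adjusted p = 0.013) was higher in dura than in brain. That call was lost without control brain (adjusted p = 0.139), brain at 72 h (adjusted p = 0.058), control dura (adjusted p = 0.154) or dura at 24 h (adjusted p = 0.179), and with kit version 2 alone.

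NK held Rora, Gata3, Areg and Calca at low levels and no Il17a UMI. Rora stood at 43.3 CPM in control brain, 0 and 56.7 CPM in brain at 24 h, 49.1 CPM in brain at 72 h, 96.7 CPM in control pia, 235 CPM in pia at 24 h, 151 CPM in control dura and 261 CPM in dura at 24 h. Both meningeal libraries at 24 h thus stood above both controls, with ratios of 2.43 (1.06 to 6.49) and 1.73 (1.09 to 2.81), and all meningeal libraries above the brain. At 24 h Rora differed by 0.90 (SE 0.30) and did not pass (adjusted p = 0.120), and none of 4 members was called beside 69 of 4757 genes (1.45%). In dura against pia none of the 4 was called, beside 59 genes (1.24%).

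In dura against brain, 3 of 4 members were higher in NK, beside 1592 of 4757 genes called (33.5%). These were Rora (1.94, SE 0.41, adjusted p = 2.4e-05), Areg (6.07, SE 2.13, adjusted p = 0.017) and Calca (3.05, SE 1.27, adjusted p = 0.048, edgeR with Benjamini-Hochberg adjustment). Areg stood at 0 and 9.82 CPM in the 2 brain libraries of this fit and at 89.7 and 39.6 CPM in the dura, from at most 16 UMIs. These brain libraries again were those of the shorter gene list, so tissue and that set cannot be told apart. Brain at 72 h is a level of its own, so the brain side of the contrast rests on the 96 NK of brain at 24 h replicate 2. DESeq2 called none of the 3 (adjusted p = 0.405 to 0.697), and with at least 10 cells, which brings in the other brain libraries, Rora alone passed (2.30, adjusted p = 0.0495).

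For NK the type 1 list is the one that holds their own effectors. Of 10 genes, 3 fell at 24 h, the cytotoxic granule genes Gzma (-0.74) and Gzmb (-0.69) and the chemokine gene Xcl1 (-0.75), with a median of -0.32 beside 0.0065 for all genes. Of 12 type 17 genes tested, Lgals3 (1.00) and Tmem176b (0.97) rose and Ccr2 (-1.49) and Serpinb1a (-1.78) fell, and of 13 type 2 genes Id2 fell (-0.63). These 8 calls stand beside 1.45% of all genes called. None was kept with DESeq2 or with at least 10 cells (adjusted p = 0.999 each), where no gene at all was called, with 16 and 106 genes at an unadjusted p under 0.05. In the latter fit Gzma turned direction (0.079). In dura against pia, Eomes, a transcription factor of NK cells, was higher (3.29), and Gzmb (-2.52) and Lgals3 (-1.39) were lower, beside 1.24% of all genes called. Gzmb alone kept its call with DESeq2 (adjusted p = 7.4e-06) and with at least 10 cells (adjusted p = 0.024). In dura against brain, 7 type 1 genes were lower and none was higher, 5 type 17 genes were higher and 3 lower, and 2 type 2 genes were higher and 4 lower. The 21 list calls stand beside 1592 of all 4757 genes called (33.5%). Of these 21 calls, 1 was kept with DESeq2 and 1 with at least 10 cells, that of Ifng, the gene of interferon-γ, in both.

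The genes most like each member were sought over 29 sums of ILC2, gdTc, Tc, NK and Bc, by Pearson's r of log2(CPM + 10) among 6474 genes. These points share libraries and depth, and r is a description across cell types. Il5 was most like Il13 (0.90), Csf2 (0.90) and Pparg (0.90), and Il13 most like Ptgir (0.95), Pparg (0.95) and Csf2 (0.94). Areg was most like Calca (0.92), Ptgir (0.92) and Rnf128 (0.91), and Calca most like Hilpda (0.92), Areg (0.92) and Il13 (0.91). For Il1rl1 these were Ptgir (0.96), Pparg (0.93) and Il13 (0.92), and for Gata3 Cd200r1 (0.93), Arf4 (0.91) and Bhlhe40 (0.91). Rora went with Icos, St6galnac3 and Mdfic (0.91 each). Il17a was most like Cd163l1 (0.88), Trdv4 (0.80) and Gpx1 (0.80), and Il23r most like Cd163l1 (0.98), Kcnk1 (0.94) and Aqp3 (0.89).

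On the genome (GRCm38, GENCODE M21), Il5 (chr11:53720794-53725106, plus strand) and Il13 (chr11:53631324-53634702, minus strand) lie 86091 bases apart with Rad50 between them, and Csf2 lies 522164 bases beyond Il5. Calca is on chr7:114631478-114636357 (minus), Areg on chr5:91139599-91148432 (plus), Il17a on chr1:20730905-20734496 (plus), Il23r on chr6:67422932-67491855 (minus), Il1rl1 on chr1:40429570-40465415 (plus), Gata3 on chr2:9857078-9890034 (minus) and Rora on chr9:68653786-69388246 (plus).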

How the data were processed

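UMI counts per gene and cell barcode were deposited by the authors for 8 libraries, made with Cell Ranger 6.0 on mm10 (submitters' processing notes). They were not normalized and listed 3076 to 7396 barcodes per library, before the authors' own filters on cells. The authors' table of clusters covers 32457 of 36854 barcodes, after their removal of doublets and of cells by gene number and mitochondrial share. Its embedding coordinates, scores deposited by the authors, were not used. Total UMIs per library were 6591898 to 20754181, and the counting intervals rest on the UMIs of the summed cells or barcodes.

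UMIs of the 30406 shared genes were summed per library and cluster and scaled to CPM. Sums of at least 30 cells were tested with edgeR 4.0.16 in R 4.3.3 (filterByExpr, TMM, glmQLFit with robust = TRUE, glmQLFTest, tissue and time as terms), two-sided, with calls at a Benjamini-Hochberg adjusted p under 0.05. For gdTc, and for dura against brain in ILC2, this left no residual degree of freedom, so sums of at least 10 cells were used. Libraries are the replicates, and since mice per library are not known, spread between libraries may be technical. In the reported fits of ILC2 at 30 cells, gdTc and NK, each group that enters has 1 library. Their residual is the difference of the 24 h change between pia and dura, moderated by the variability of other genes. Those p-values thus do not measure a spread between replicate libraries. An SE given with edgeR is the absolute log2 fold change divided by the square root of the F statistic. The fits were also run on simulated counts with known changes, drawn from the same mean profile for every tissue. These counts held no difference of the 24 h change between pia and dura, so they cannot show that the p-values hold. Alternatives were DESeq2 1.42.0, library size alone, no filter, at least 10 cells, cells thinned to 500 or 1000 UMIs, each library left out, kit version 2 alone and cells without a T cell receptor or Cd3 UMI. Those that pair at least 10 cells with another change, the longer gene list alone, the levels without the highest cell and the leave-outs with at least 10 cells were chosen after seeing the data. Promoter motifs were counted in all 32851 RefSeq windows. Named genes are the 9 members, the called genes and up to 4 most counted genes of the type 2, type 17 and type 1 lists, and the 3 most like genes among those with at least 100 UMIs. The members and lists were chosen with earlier results of these data known. Sums, intervals and plots were made in Python 3.11.15 (with scipy 1.17.1, numpy 2.4.6, matplotlib 3.10.9, pandas 2.3.3).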

Additional observations from a re-analysis of the deposited data

Results flagged for a closer look

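Barcodes that the authors left without a cluster entered no comparison above, and they held Il5 and Calca in both meningeal tissues, and Il13 in pia, above the control level at 24 h. In pia at 24 h, Il5 stood at 112 CPM (94.6 to 131) in the summed 400 barcodes, from 150 UMIs in 7 barcodes with 86 in the highest, against 0 in 266 barcodes of control pia, where 3 counts would be 3.94 CPM. In dura at 24 h it stood at 33.7 CPM (26.9 to 41.7), from 85 UMIs in 15 of 538 barcodes, against 1.79 CPM (2 UMIs in 1 barcode) in control dura. Il13 stood at 28.3 CPM (20.0 to 38.9) in pia at 24 h, with 31 of its 38 UMIs in 1 barcode, against 0 in control pia. In dura, Il13 went the other way, with 9.82 CPM (4.90 to 17.6) in control and 1.98 CPM (0.643 to 4.62) at 24 h, from 11 and 5 UMIs. Areg intervals overlapped in both tissues, at 23.6 and 34.3 CPM in pia and 47.3 and 55.5 CPM in dura. Il17a had 7 UMIs in dura at 24 h and 6 in brain at 24 h replicate 2. It had 1 each in control dura and brain at 72 h, and none in the other libraries. Calca stood at 177 CPM (155 to 201) in pia at 24 h against 2.62 CPM in control pia, and at 258 CPM (239 to 279) in dura at 24 h, from 651 UMIs in 84 barcodes, against 56.2 CPM (43.2 to 72.0) in control dura.

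In pia and dura at 24 h, barcodes without a cluster were richer in genes than annotated ILC2, with or without Il5. The median over all of them was 1273 genes in pia at 24 h and 1290 in dura at 24 h. For those with Il5 the median was 1772 genes in pia at 24 h, where ILC2 had 602, and 1119 genes in dura at 24 h, where ILC2 had 514. Gata3 was present in 5 of the 7 and in 11 of the 15. In pia at 24 h, 2 of the 7 held more genes than the highest annotated cell (1974). Which of the authors' filters removed them was not tested.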

How the results depend on the processing

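Counts of called genes moved with the tool, the low-count filter and the libraries, and in Tc with scaling. For 24 h against control in ILC2 (53 main) they were 5 with DESeq2, 16 without the low-count filter, 2 with at least 10 cells and 0 with both at least 10 cells and DESeq2, 82 with the longer gene list alone, and 82 without brain at 72 h, the only library that could be left out. With at least 10 cells (2), they were 0 to 56 with 1 library left out. For dura against pia in ILC2 (41) they were 2, 5 and 1 with DESeq2, at least 10 cells and both, and for dura against brain (48) 6 with DESeq2, 28 after thinning and 0 to 573 with 1 library left out. In gdTc they were 0, 0 and 2 at 24 h (17), 0, 11 and 2 for dura against pia (18), and 70, 227 and 148 for dura against brain (466) with DESeq2, no filter and thinning. In Tc at 24 h (0) they were 1 without the filter, 55 with the longer gene list and 0 to 109 with 1 library left out, the highest without brain at 24 h replicate 2. For dura against pia in Tc (2) they were 1 with DESeq2 at either cell minimum, 6 with library size alone, 8 without the filter, 0 with kit version 2, 29 with the longer list and 0 to 68 with 1 library left out, and for dura against brain (38) 59, 113, 1, 126 and 1 to 302 with library size, no filter, kit version 2, longer list and leave-outs. In NK they were 0, 15, 0, 0 and 12 at 24 h (69), 3, 35, 4, 1 and 13 for dura against pia (59), with DESeq2, no filter, at least 10 cells, the latter with DESeq2, and thinning, and for dura against brain (1592) 96 with DESeq2, 69 with at least 10 cells, 27 with both and 489 after thinning. With library size alone, the split of higher to lower calls in dura against brain went from 226 and 240 to 324 and 196 in gdTc and from 621 and 971 to 886 and 740 in NK, and with DESeq2 from 28 and 10 to 18 and 13 in Tc.

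Of the members' log2 fold changes under an alternative, 390 kept direction and side of the threshold, 55 lost a call, 6 gained one and 32 changed direction. All that changed direction were uncalled in the report. At 24 h these were Gata3 (0.034) and Areg (0.069) in ILC2 without the filter, Rora in gdTc after thinning (-0.10), and in Tc Gata3 (0.00030 with DESeq2, 0.21 with kit version 2, -0.67 to 0.43 with leave-outs) and Areg (0.16, 0.57, -0.26 to 0.55). In dura against pia they were Calca in ILC2 (0.31) and Rora in gdTc (0.088) without the filter, Gata3 in Tc (-0.0089 to 1.43 with leave-outs) and Rora in NK after thinning (-0.16). In dura against brain they were Il1rl1 in ILC2 (-0.083 with DESeq2, -0.0014 with library size, -0.62 to 3.18 with leave-outs), Calca in ILC2 (0.55 without the filter, 0.63 after thinning, -0.93 to 0.59 with leave-outs) and Gata3 in NK (0.16 with DESeq2, 0.19 with library size, 0.18 without the filter, 0.11 and 0.076 with at least 10 cells by edgeR and DESeq2). Il1rl1 in ILC2 passed the threshold in dura against pia after thinning (1.24). The causes were not tested. All 94 mean levels moved by less than 1 SD between libraries. With the libraries left out here a mean could not move that far, so those alternatives decide nothing. All 20 shares moved with the thinning depth.

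No paired analysis was possible because the groups share no replicate numbers that pair libraries. Fits of gdTc at 30 cells, of ILC2 in dura against brain at 30 cells, and of ILC2 and NK without cells holding a T cell receptor or Cd3 UMI left no residual degree of freedom and gave no value.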

Other observations

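Mast cells, a cluster of 195 cells, were the other carriers of type 2 transcripts. Il13 averaged 286 ± 29.5 CPM there (SD, n = 2 libraries with at least 30 cells) and was found in 40 cells, and Il1rl1 averaged 504 ± 140 CPM and was found in 77 cells. By mean CPM both genes ranked first in mast cells among the 21 clusters, above ILC2. Il5 and Areg had no UMI in mast cells, and Gata3 had 1. Calca had 58 UMIs in 19 mast cells, at 24.1 and 384 CPM in the 2 libraries.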
